A study of Mus musculus with 6 samples.

Results

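The genes described here were 10 regulators of early mesoderm and endoderm, namely Mixl1, T, Eomes, Gsc, Foxa2, Sox17, Gata4, Gata6, Cer1 and Hhex, out of 22350 annotated protein-coding genes. They were chosen by name, and each was taken with 50 kb of sequence on either side of its bounds on the mouse assembly mm9. The data came from E14 TG2A mouse embryonic stem (ES) cells, a pluripotent line, in which chromatin bound by Smad2 phosphorylated at its carboxy terminus (pSmad2) was pulled down and sequenced (ChIP-Seq). All cells first spent 6 h in 10 uM SB-431542 (SB), which blocks the type I receptors from phosphorylating Smad2, in medium with 20% knockout serum replacement and without LIF. They were then kept in the same medium for 18 h with 25 ng/ml Activin (high signaling), with the solvent DMSO at a dilution of 1 in 5000 (endogenous signaling), or again with 10 uM SB (low signaling). Each treatment had 1 ChIP library and 1 input library of chromatin that did not pass the antibody. With 1 library per group there was no replicate check, so every test below compared libraries and covered counting error only. The libraries hold DNA and not RNA, so neither the identity of the cells nor the expression of the 10 genes was measured in these files.

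Nodal and Activin bind receptor kinases that phosphorylate Smad2 and Smad3, which enter the nucleus with Smad4 and bind DNA together with partners such as FoxH1. Smad proteins recognise the short element CAGA or the longer CAGAC, and FoxH1 binds a site close to AATNNACA. In the gastrulating embryo this pathway directs the primitive streak, mesoderm and endoderm, and the 10 genes are widely used markers of these steps. Mixl1, T, Eomes and Gsc encode transcription factors of the streak and organizer, Foxa2, Sox17, Gata4, Gata6 and Hhex encode transcription factors of endoderm, and Cer1 encodes a secreted antagonist of Nodal, BMP and Wnt ligands.

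The authors' peak lists placed 7 positions in the windows of 5 of the 10 genes, and these positions merged into 6 sites. Mixl1, Eomes, Foxa2 and Gata6 had 1 site each and Gata4 had 2, while T, Gsc, Sox17, Cer1 and Hhex had none. The Eomes and Foxa2 positions had 10 listed tags each. Both fell short of the at least 13 tags that the paper required of peaks above background. The sequences around the highest ChIP pileup of 3 sites are shown because they held the site that stood highest above input in Activin (Mixl1) and a pair of sites listed under SB (Eomes and Foxa2). Each is 300 bp of the plus strand of mm9, with CAGAC and AATNNACA on either strand in capitals.
Mixl1, chr1:182577924-182578223: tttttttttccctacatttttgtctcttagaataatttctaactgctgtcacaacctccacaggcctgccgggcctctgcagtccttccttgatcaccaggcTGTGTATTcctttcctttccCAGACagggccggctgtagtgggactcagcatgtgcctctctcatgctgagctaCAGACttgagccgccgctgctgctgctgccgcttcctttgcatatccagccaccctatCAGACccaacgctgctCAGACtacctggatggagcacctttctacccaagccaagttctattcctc
Eomes, chr9:118422195-118422494: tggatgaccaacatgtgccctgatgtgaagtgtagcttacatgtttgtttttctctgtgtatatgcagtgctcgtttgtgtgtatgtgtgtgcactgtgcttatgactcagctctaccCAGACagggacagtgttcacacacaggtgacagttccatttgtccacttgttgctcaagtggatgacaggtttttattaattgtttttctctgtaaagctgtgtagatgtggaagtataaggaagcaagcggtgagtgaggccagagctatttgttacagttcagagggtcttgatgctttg
Foxa2, chr2:147878991-147879290: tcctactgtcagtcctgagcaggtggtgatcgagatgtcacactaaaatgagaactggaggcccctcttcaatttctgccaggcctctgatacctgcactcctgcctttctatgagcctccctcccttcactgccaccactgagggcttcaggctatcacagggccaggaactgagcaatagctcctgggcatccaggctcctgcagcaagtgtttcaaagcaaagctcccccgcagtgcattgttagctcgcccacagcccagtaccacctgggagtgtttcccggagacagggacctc
The Mixl1 sequence held 4 copies of CAGAC and 1 of AATNNACA. The Eomes sequence held 1 copy of CAGAC, the Foxa2 sequence held neither element, and none of the 300 bp stretches overlapped an annotated exon. The Gata6 site, also listed under SB but not shown, held 2 copies of CAGAC in such a stretch. Of the Gata4 sites, not shown either, the one listed under DMSO and SB held 1 copy and the other none.

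Among all 12214 merged sites, 57.6% held CAGAC in such a window, 17.03% held AATNNACA and 10.03% held both. Of the 6 sites near the 10 genes, 4 held CAGAC, and the Mixl1 site alone held AATNNACA. As many as 4 copies of CAGAC were found in 2.53% of all sites. The shorter CAGA, which every copy of CAGAC contains, was found in all 6 sites and in 97.72% of all sites. These are matches of letters and not measurements of binding.

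Taken over any list, the share of genes with a listed position was close to the genome background. A position from any list lay within 50 kb of 5 of the 10 genes, compared to 54.7% of all coding genes. The Activin list had a position near 1 gene (Mixl1), compared to 34.1% of coding genes, and the DMSO list near 1 gene (Gata4), compared to 40.4%. The SB list had a position near 4 genes (Eomes, Foxa2, Gata4 and Gata6), compared to 35.0%. None of the 10 genes had positions from all 3 lists, compared to 20.6% of coding genes. The median length was 6.66 kb for the 10 genes and 15.43 kb for all coding genes, so most of their windows were shorter than those of a typical gene.

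**Figure D1:**
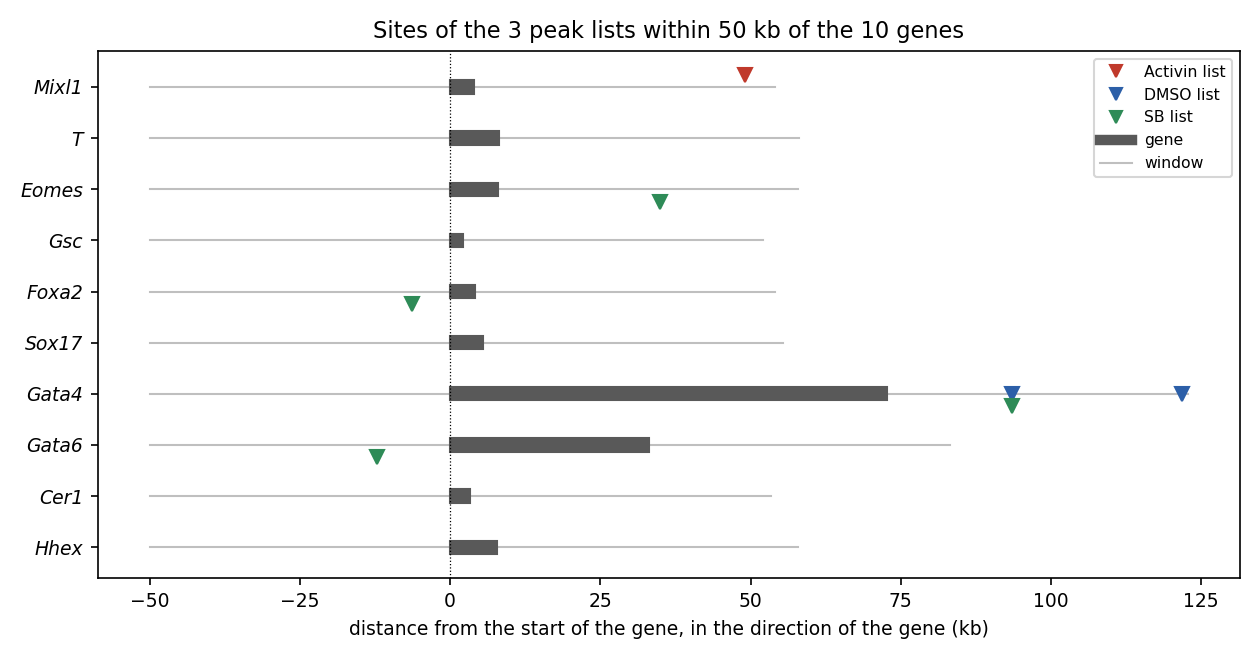
Listed sites around the 10 genes. The horizontal axis gives the distance in kb from the start of each gene in its direction of transcription, dark bars are the genes, thin lines are the windows, and triangles are sites colored by the list that held them. The Mixl1 site of the Activin list and both Gata4 sites lay beyond the end of the gene, while the Foxa2 and Gata6 sites of the SB list lay upstream of the start.

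Several listed positions lay near the edge of the window. Just inside it, a Gata4 position lay 48.9 kb from the gene with 13 tags in the DMSO list, and the Mixl1 position lay 45.1 kb from the gene with 32 tags in the Activin list. Just outside, Gata4 had positions 54.4 kb away with 93 tags in the Activin list, 54.3 kb away with 25 tags in the DMSO list and 54.0 kb away with 38 tags in the SB list. T had a position 58.2 kb away with 13 tags in the Activin list. The nearest positions of any list were 212.8 kb from Gsc, 232.9 kb from Sox17, 339.2 kb from Cer1 and 84.0 kb from Hhex.

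Tags were counted once per position and strand. This left 10537724 tags for Activin ChIP, 9713869 for DMSO ChIP and 7805150 for SB ChIP, and 9786787 to 11913742 for the inputs. The 6 sites were small, with a median of 24.5 unique ChIP tags over the 3 libraries compared to 37.0 for all merged sites. Ratios below are of tags scaled to the total of unique tags of each library, followed by the 95% Clopper-Pearson interval, and p values come from exact binomial tests adjusted over all 12214 sites by the Benjamini-Hochberg method. A site was called at an adjusted p under 0.05.

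Mixl1, a homeobox gene of the primitive streak, had the only site with more tags in Activin than in both other treatments. The site (chr1:182577749-182578490) lay 49.1 kb downstream of the Mixl1 start, in an intron of Lin9, and 6.6 kb from the nearest coding start, which was that of Lin9. Activin ChIP held 32 tags, DMSO ChIP 14 and SB ChIP 5, and the inputs 5, 8 and 14 in the same order. The ChIP counts were highest in Activin and lowest in SB, and the input counts ran the opposite way.

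ChIP tags at the Mixl1 site were 4.74-fold higher in Activin than in SB (1.83 to 15.6, adjusted p 0.00574, two-sided exact binomial test), and 7.65-fold higher in 500 bp around the highest pileup. That narrower window was centred on the pileup of the 3 ChIP libraries together, which Activin dominated here. Its larger ratio is thus partly fixed by its placement. The step from DMSO to Activin was 2.11-fold (1.09 to 4.27), but its adjusted p of 0.130 missed the threshold. In Activin the site stood 6.62-fold above its own input (2.56 to 21.7, adjusted p 3.69e-05, one-sided exact binomial test). The ratio of ChIP to input was 2.15 in DMSO (0.840 to 5.91) and 0.448 in SB (0.126 to 1.32), and neither was called.

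The input of the SB library was itself high at the Mixl1 site. Its pileup of 200 bp fragments reached 12 there, against 3 in the SB ChIP library and 24 in the Activin ChIP library. The input ratio of Activin to SB was 0.321 (0.0904 to 0.943), and its part in the ChIP difference was not tested. In the Activin ChIP library the median 5′ end of minus strand tags lay 225.0 bp to the right of that of plus strand tags. The same distance in Activin was -40.5 bp at Eomes, and -53.0 bp and 34.0 bp at the Gata4 sites. At Gata6 it was 127.0 bp, from 1 tag on each strand, and Foxa2 had no minus strand tag.

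**Figure D2:**
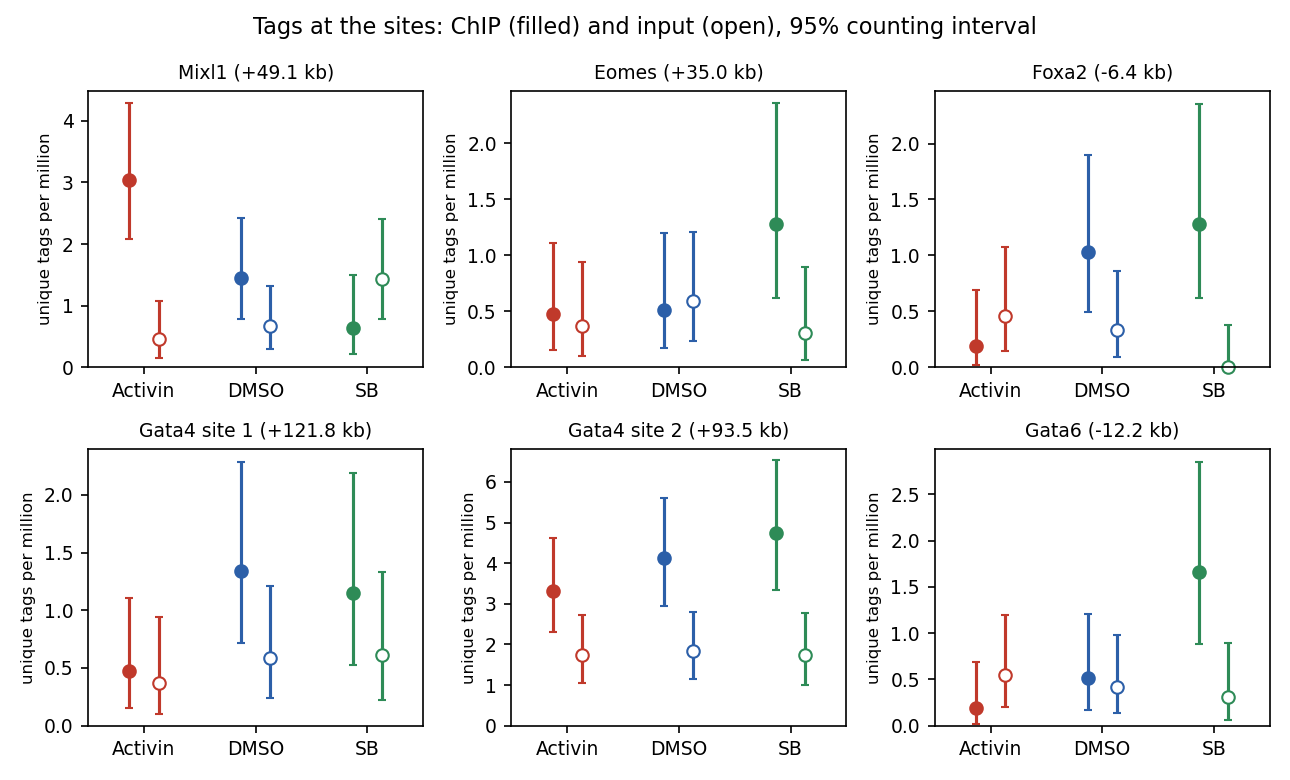
Tags at the 6 sites in every library. The vertical axes give tags per 1000000 unique tags of the library for ChIP (filled) and input (open) in Activin, DMSO and SB, with exact Poisson 95% intervals that cover counting error only. At Mixl1 the Activin ChIP point (3.04) lay above the DMSO point (1.44) and the SB point (0.641), while at Gata6 the SB point (1.67) lay highest.

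Gata6, a zinc finger factor of primitive and definitive endoderm, showed the reverse order. Its site (chr18:11039998-11040619) lay between genes at -12.2 kb from the start, thus upstream, and came from the SB list only. Activin ChIP held 2 tags, DMSO ChIP 5 and SB ChIP 13, against input counts of 6, 5 and 3. Only the SB ChIP count exceeded all input counts.

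At the Gata6 site, Activin tags were 0.114 times SB tags (0.0125 to 0.503, adjusted p 0.0149, two-sided exact binomial test). SB tags were 3.24 times DMSO tags (1.08 to 11.6), with an adjusted p of 0.154 that missed the threshold. The SB ChIP library stood 5.43-fold above its input (1.49 to 29.7, adjusted p 0.0107, one-sided exact binomial test), whereas Activin and DMSO ChIP were not called above theirs. The site rests on 20 ChIP tags in all.

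Foxa2, a forkhead factor of the organizer and definitive endoderm, carried its site (chr2:147878793-147879329) between genes at -6.4 kb from the start, thus upstream. Activin ChIP held 2 tags and DMSO and SB ChIP 10 each, against input counts of 5, 4 and 0. The Activin count was the lowest of the ChIP libraries, and SB to DMSO had a ratio of 1.25 (0.465 to 3.33). Activin tags were 0.148 times SB tags (0.0158 to 0.695), with an adjusted p of 0.0562 by the two-sided exact binomial test. SB ChIP was called above input (adjusted p 0.00177, one-sided exact binomial test), with a lower limit of the ratio of 2.81, since the SB input held no tag.

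Eomes, a T-box factor needed for endoderm, carried its site (chr9:118422156-118422625) 35.0 kb downstream of the start in an intron of Golga4, 6.9 kb from the Golga4 start. Activin and DMSO ChIP held 5 tags each and SB ChIP 10, against input counts of 4, 7 and 3. The Activin and DMSO counts lay within the range of the inputs. SB ChIP stood 4.18-fold above its input (1.08 to 23.6, adjusted p 0.0457, one-sided exact binomial test), and the ratio of Activin to SB of 0.370 (0.0993 to 1.19) was not called.

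Gata4, a zinc finger factor of endoderm and heart, has a long annotated gene here of 72771 bp, and both of its sites lay beyond its end in or next to Fdft1. The taller site (chr14:63796320-63797615) lay 93.5 kb from the outermost Gata4 start and 35.4 kb from the nearest annotated coding start of Gata4, and at -0.4 kb from the start of Fdft1, which encodes an enzyme of sterol synthesis. Activin ChIP held 35 tags, DMSO ChIP 40 and SB ChIP 37, against input counts of 19, 22 and 17. All 3 ChIP counts exceeded all 3 input counts.

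This was the only one of the 6 sites called above input in every treatment, by 1.91-fold in Activin (1.06 to 3.53, adjusted p 0.0396), 2.23-fold in DMSO (1.29 to 3.94, adjusted p 0.00580) and 2.73-fold in SB (1.5 to 5.17, adjusted p 0.00177, one-sided exact binomial tests). Between treatments it was not called, with a ratio of Activin to SB of 0.701 (0.429 to 1.14). The other Gata4 site (chr14:63768465-63768840), in an intron of Fdft1, held 5, 13 and 9 ChIP tags in Activin, DMSO and SB and 4, 7 and 6 input tags. It was called neither above input nor between treatments.

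**Figure D3:**
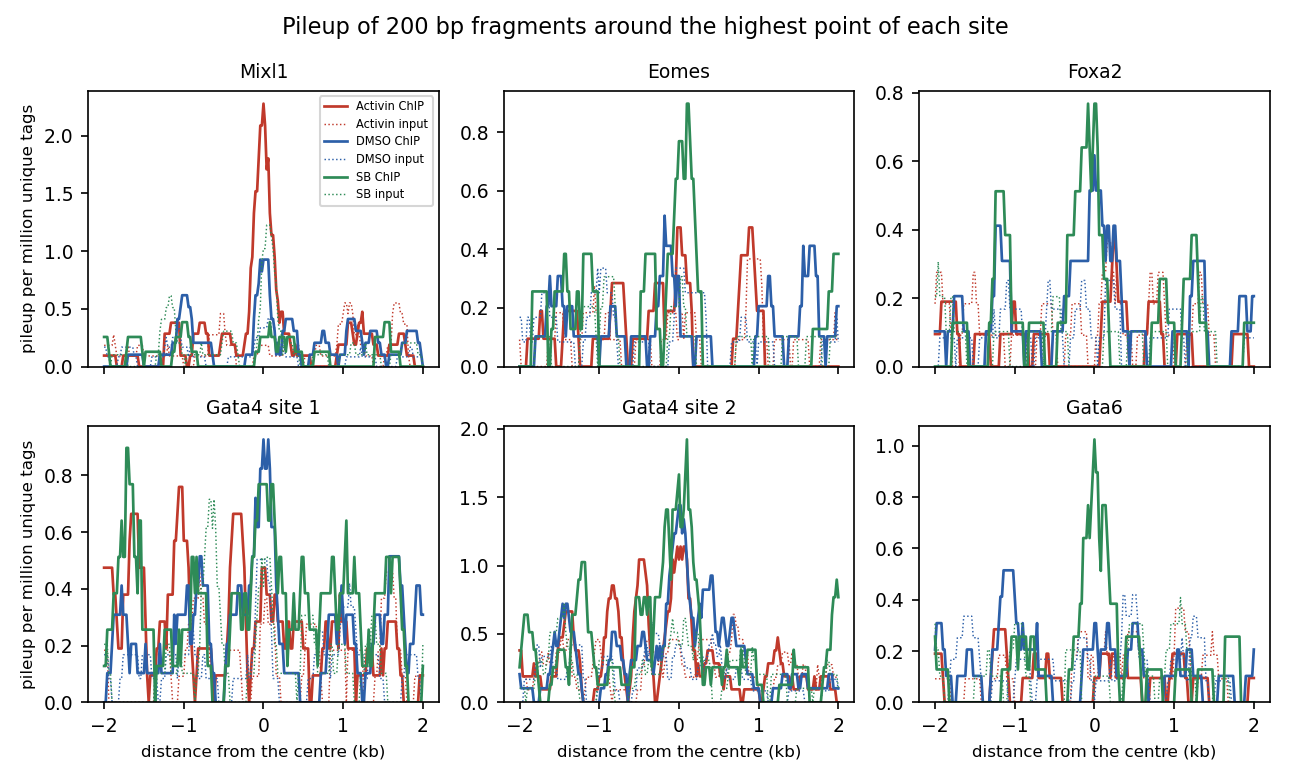
Pileup around the 6 sites. The vertical axes give the pileup of tags extended to 200 bp, per 1000000 unique tags, and the horizontal axes the distance in kb from the highest pileup of the 3 ChIP libraries together, with ChIP as solid and input as dotted lines. The Activin line at Mixl1 and the SB line at Gata6 rise highest at the centre, and a dotted SB input line also rises at the Mixl1 centre.

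Over the 6 sites, 0 were called between Activin and DMSO, compared to 3.48% of all sites, and 2 of them (Mixl1 and Foxa2) had an unadjusted p under 0.05 by the exact binomial test. Between SB and DMSO 0 were called, compared to 5.44%, and 1 (Gata6) had an unadjusted p under 0.05. Between Activin and SB, the widest step in signaling, 2 were called (Mixl1 and Gata6), compared to 15.9% of all sites. Higher counts in Activin were called at 1 site, against 4.44% of all sites, and lower counts at 1 site, against 11.5%.

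A site from a single list was placed there by its tags in that treatment, so the direction of these differences is partly fixed by the choice of sites. Of the sites found only in the Activin list, as at Mixl1, 11.4% were called higher in Activin than in SB. Of those found only in the SB list, as at Gata6, Foxa2 and Eomes, 31.4% were called lower in Activin. ChIP above input was called at 2 of the 6 sites for Activin, 1 for DMSO and 4 for SB, where 39.8%, 56.1% and 40.1% of all sites were called, and the lists rest on that same contrast. Scaled by GC content, an alternative chosen after seeing the data, Foxa2 and the smaller Gata4 site were also called above input in DMSO (adjusted p 0.0385 and 0.0499, one-sided exact binomial test).

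Ordered by tags scaled to library size, 4 of the 6 sites ran from SB over DMSO to Activin, an order seen in 24.09% of all sites. These were the sites of Eomes, Foxa2 and Gata6 and the taller site of Gata4. The Mixl1 site alone ran from Activin over DMSO to SB, an order seen in 14.65% of all sites, and the other Gata4 site ran from DMSO over SB to Activin. No pair of neighbours in these orders was called apart by the exact binomial test, and 2 sites left the order under an alternative. Scaled by GC content, the taller Gata4 site had a ratio of SB to DMSO of 0.943 in place of 1.15, and in 500 bp around its highest pileup the Eomes site had a ratio of Activin to DMSO of 1.11 in place of 0.922. The median log2 ratio of Activin to SB was -1.29 over the 6 sites and -0.29 over all sites.

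**Figure D4:**
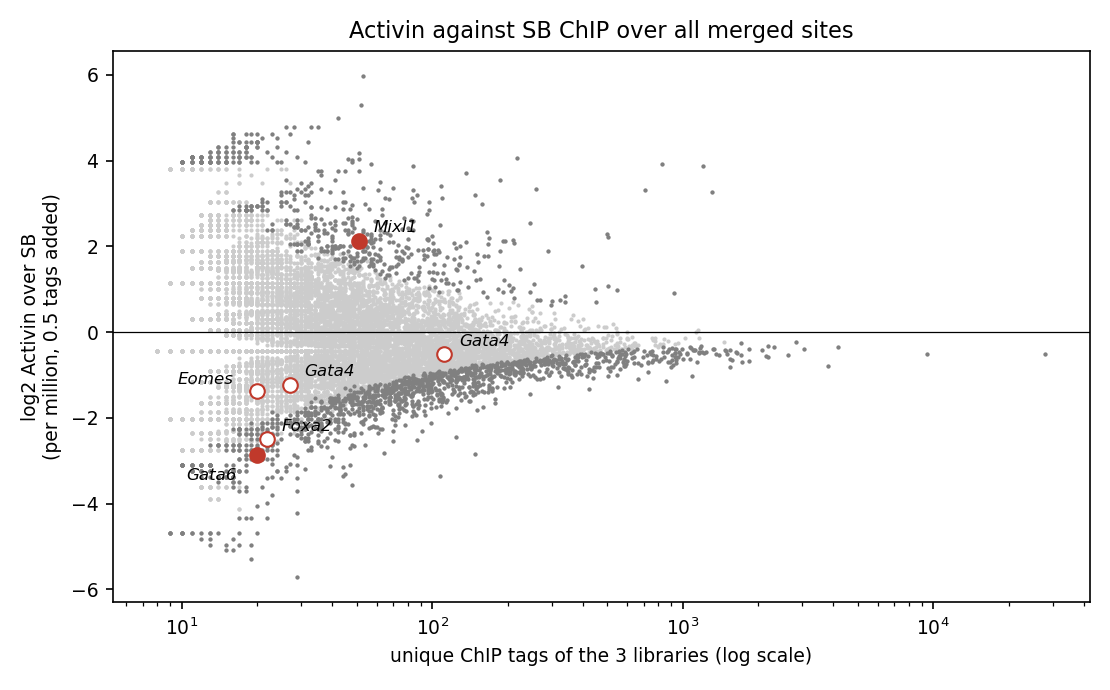
Activin against SB ChIP over all merged sites. The horizontal axis gives the unique ChIP tags of the 3 libraries on a log scale, the vertical axis the log2 ratio of Activin to SB in tags per 1000000 unique tags with 0.5 tags added to each count. Grey points are all other sites (dark if called), filled red circles are called sites near the 10 genes (Mixl1 and Gata6), and open circles are sites that were not called.

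Bins of 200 bp were used to look for signal that the lists did not hold. The windows of the 10 genes contained 5754 bins, of which 30 for Activin, 39 for DMSO and 32 for SB had at least 10 unique tags in ChIP and input together. In Activin 1 bin was called above input, compared to 2.57% of all bins tested, and none was called in DMSO (3.18% of all bins) or SB (4.29%). The called bin lay in the Mixl1 site (chr1:182578001-182578200) and held 19 Activin, 9 DMSO and 2 SB ChIP tags, against 2, 4 and 11 input tags (adjusted p 0.00756 in Activin, one-sided exact binomial test).

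In the genes without a listed site the highest bins were low. The highest Activin ChIP bin held 8 tags for T, 9 for Gsc, 7 for Sox17, 5 for Cer1 and 8 for Hhex. The input held 9, 7, 3, 1 and 4 tags in those bins. In DMSO the highest bins of these 5 genes held 5 to 8 tags and in SB 4 to 9. None of the bins tested in these windows was called above input. Bins under 10 tags were not tested, among them every Cer1 bin in DMSO and SB and the highest Hhex bin in DMSO, which held 8 ChIP tags and no input tag. Low highest bins were not particular to genes without a site. In Activin, DMSO and SB they held 9, 8 and 8 tags for Eomes, 6, 6 and 6 for Foxa2 and 7, 5 and 7 for Gata6. Those of Mixl1 held 19, 9 and 9 and those of Gata4 12, 10 and 14. No Foxa2 bin was tested in any treatment.

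The start sites themselves, taken with 1 kb on each side, held 4 to 28 unique ChIP tags per library. The T start, that of the T-box gene Brachyury of the primitive streak, held 14 Activin, 19 DMSO and 15 SB ChIP tags, and 32, 34 and 22 input tags. Its ratio of ChIP to input in Activin was 0.452 (0.223 to 0.872), so the ChIP library held fewer tags than input. Of the 10 start sites, this was the only one in any treatment whose interval lay apart from 1, and none lay above 1. These intervals were not adjusted for the number of start sites and treatments compared. The share of all coding genes with a start interval apart from 1 was not counted.

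Hhex, a homeobox gene of anterior endoderm, had 15 Activin, 22 DMSO and 10 SB ChIP tags at its start, against 8, 15 and 16 input tags. Its ratio of ChIP to input was 1.94 (0.772 to 5.28) in Activin, 1.80 (0.892 to 3.73) in DMSO and 0.784 (0.318 to 1.84) in SB. Eomes had 18, 16 and 25 ChIP tags and 9, 25 and 20 input tags, with ratios of 2.07 (0.882 to 5.22), 0.785 (0.392 to 1.53) and 1.57 (0.836 to 2.98). All of these intervals included 1.

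Cer1 had 9, 9 and 4 ChIP tags at its start in Activin, DMSO and SB, and Sox17, an HMG box factor of definitive endoderm, had 15, 21 and 12. Their inputs held 8, 16 and 12 tags at Cer1 and 11, 24 and 12 at Sox17. Gsc, the organizer gene Goosecoid, had 6, 6 and 13 ChIP tags and 5, 7 and 10 input tags. Foxa2 had 15, 9 and 14 ChIP tags, Gata4 11, 7 and 5, and Gata6 21, 15 and 12, and none of their ratios of ChIP to input had an interval above 1.

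**Figure D5:**
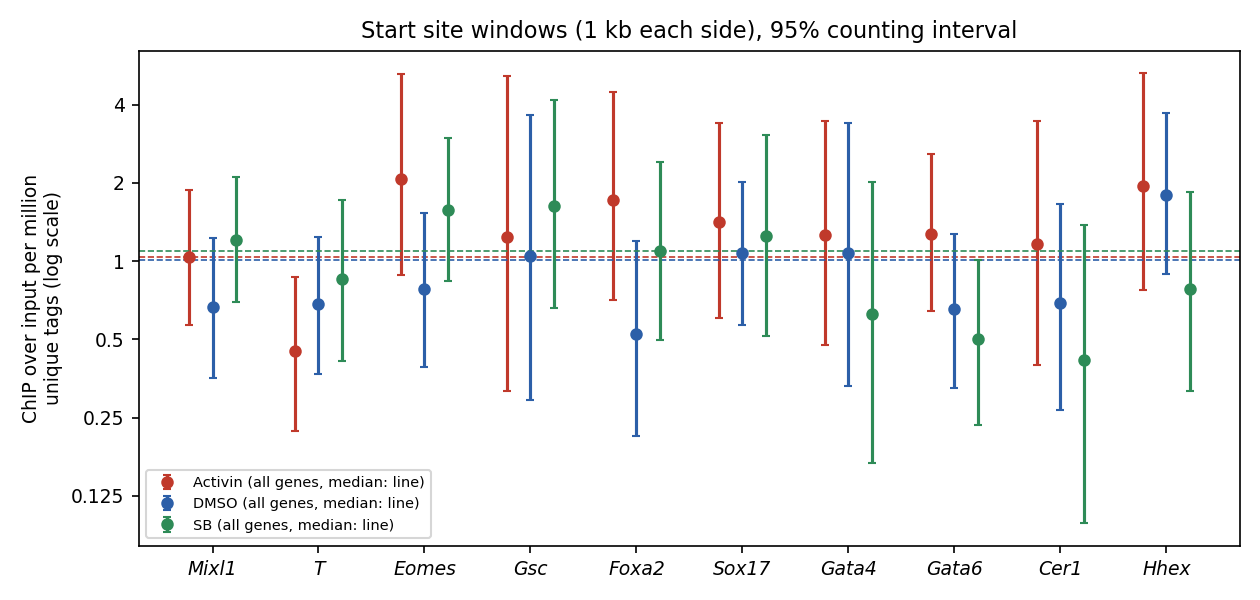
ChIP over input at the start sites of the 10 genes. The vertical axis gives the ratio of tags per 1000000 unique tags on a log scale in windows of 1 kb on each side, with 95% Clopper-Pearson intervals, and dashed lines are the medians of all coding genes (1.03 for Activin, 1.01 for DMSO and 1.10 for SB). The T point in Activin (0.452) is the only one whose interval does not reach 1.

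Between treatments, 1 start site had an interval apart from 1 for SB against DMSO, 1 for Activin against SB and 0 for Activin against DMSO. The share of all coding genes with such an interval was not counted. The Mixl1 start held 25 Activin, 18 DMSO and 28 SB ChIP tags, with a ratio of SB to DMSO of 1.94 (1.03 to 3.72), and the Gsc start had a ratio of Activin to SB of 0.342 (0.107 to 0.964). These intervals were not adjusted for the 30 ratios compared. Scaled by the GC content of each window, the ratio at Mixl1 was 1.59 (0.847 to 3.04) and that at Gsc 0.456 (0.142 to 1.29), and none of the 10 genes had an interval apart from 1. The median ratio of Activin to SB at start sites was 0.860 for the 10 genes and 0.780 for all coding genes.

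Over the whole windows, the interval of ChIP to input lay apart from 1 for 4 of the 10 genes in Activin (2 above and 2 below), 4 in DMSO (1 above and 3 below) and 6 in SB (2 above and 4 below). The share of all coding genes with such an interval was not counted, so these counts cannot be set against a background. No adjustment was made for the number of ratios compared. T had 625 Activin, 532 DMSO and 446 SB ChIP tags, and 734, 827 and 686 input tags, which gave ratios of 0.880 (0.790 to 0.981), 0.789 (0.706 to 0.881) and 0.815 (0.722 to 0.920). The ratio in DMSO was lower in only 3.5% of coding genes. The GC content of the T window (46.7%) predicted a ratio of 0.920 in DMSO, and scaled to it the ratio was 0.857 (0.768 to 0.957).

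Gsc was also below 1 in Activin, at 0.829 (0.745 to 0.922), and in SB, at 0.829 (0.737 to 0.931). Sox17 was below 1 in DMSO, at 0.823 (0.716 to 0.945), Gata6 in DMSO and SB, at 0.884 (0.790 to 0.990) and 0.862 (0.760 to 0.977), and Eomes in SB, at 0.880 (0.781 to 0.990). Scaled by GC content, the intervals of Gata6 and Eomes and that of T in Activin included 1. The same scaling placed Mixl1 above 1 in Activin, at 1.126 (1.006 to 1.261), and in DMSO, at 1.161 (1.035 to 1.302). It also placed Gata4 above 1 in DMSO, at 1.156 (1.065 to 1.256). Gata4 was above 1 in Activin, at 1.09 (1.00 to 1.18), and in SB, at 1.13 (1.03 to 1.23).

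Hhex ran the other way from T, with 714, 700 and 576 ChIP tags and 628, 773 and 591 input tags. Its ratios of 1.18 (1.05 to 1.31) in Activin, 1.11 (1.00 to 1.23) in DMSO and 1.22 (1.09 to 1.37) in SB were all above 1, although the window held no listed position. Lower ratios were found in 69.4% to 85.3% of coding genes. Kif11, a mitotic motor gene, lies in the same window.

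For Activin against DMSO, no window of the 10 genes had an interval apart from 1, and for SB against DMSO only that of Gata4 had. The latter ratio was 1.13 (1.04 to 1.23), and 1.06 (0.968 to 1.15) scaled by GC content. The share of all coding genes with such an interval was not counted. The Gata4 window held 1169 Activin, 1081 DMSO and 982 SB ChIP tags, with a ratio of Activin to SB of 0.882 (0.809 to 0.961), which was 0.929 (0.852 to 1.01) when scaled by GC content. The Mixl1 window, in spite of its site, held 635, 574 and 432 ChIP tags, with a ratio of Activin to SB of 1.09 (0.962 to 1.23).

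A list of 30 other genes of the pathway and of mesendoderm was taken for comparison. Of these, 18 (60.0%) had a site within 50 kb, compared to 54.7% of all coding genes with a listed position. There were 43 sites in all. Between Activin and SB, 6 of these sites were called higher in Activin and 7 lower, where 4.44% and 11.5% of all sites were. The median log2 ratio of the 43 sites was 0.17. Some genes had more than 1 called site, among them Tdgf1 and Fgf8, so the sites do not stand for separate genes. The highest Activin count at a site of the 10 genes was 35, at Gata4.

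Among the sites higher in Activin, Tdgf1, which encodes the Nodal co-receptor, had a site with 246 Activin, 207 DMSO and 92 SB ChIP tags and a ratio of Activin to SB of 1.98 (1.55 to 2.55, adjusted p 1.31e-06, two-sided exact binomial test). The ligand gene Nodal had one with 217, 149 and 80 tags and a ratio of 2.01 (1.55 to 2.63, adjusted p 4.82e-06).

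Other sites of the list were lower in Activin. The window of Tbx6, a T-box gene of paraxial mesoderm, held a site with 420, 497 and 446 tags in Activin, DMSO and SB (ratio of Activin to SB 0.698, 0.609 to 0.799). That of Chrd, an antagonist of BMP ligands, held one with 54, 65 and 86 tags (0.465, 0.325 to 0.661), and that of the ligand gene Fgf8 one at -39.9 kb from the start with 17, 16 and 41 tags (0.307, 0.164 to 0.553). Another Fgf8 site, at -3.3 kb and outside the naming rule, ran the other way with 45, 25 and 16 tags (2.08, 1.16 to 3.95), but was not called (adjusted p 0.0677, two-sided exact binomial test). For genes of other lineages, 7 of 13 trophectoderm genes found had a site, with 2 of 40 sites higher and 8 lower in Activin than in SB, and 6 of 13 neuroectoderm genes, with 1 of 21 sites higher and 4 lower. Among all sites, 4.44% were called higher and 11.5% lower, and 54.7% of all coding genes had a listed position within 50 kb.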

How the data were processed

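The authors aligned 35 bp tags to mm9 and called peaks with MACS on each ChIP against its own input, at a p of 1e-05. The aligner and MACS version were not given in the sources used. The deposited tag files give 1 aligned tag per line, and the deposited peak lists give the position of a peak with its count of tags. The 10 genes and the comparison lists were chosen with earlier results of these data known.

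Peak intervals were rebuilt from the tags, since the lists hold no start and end. The rebuilt count equalled the listed count for 53.5% (Activin), 60.9% (DMSO) and 48.2% (SB) of peaks. Intervals sharing 1 bp were merged. Tags were counted at the middle of a 200 bp fragment, once per position and strand, because libraries with PCR copies break the assumption of the binomial test (19.9% to 24.6% of ChIP tags and 5.64% to 6.94% of input tags shared a position). Exact binomial tests on these counts were adjusted over all sites or over all bins. They were also run on simulated Poisson counts, which hold counting error only. Such counts cannot show how the tests behave under other variation between libraries. GC content was scaled by library ratios in 500 bp windows outside the sites. Genes are those of the GENCODE annotation on mm9. All 10 genes are named, each with its tallest site and any called site, and pathway genes by smallest p, at most 3 in each direction. The result at 1 gene of that list is not reported here. Of 14 trophectoderm and 14 neuroectoderm genes, 13 each matched by name. Python 3.11.15 with scipy 1.17.1 and pysam 0.24.0 was used. Intervals and tests cover counting error only. Alternatives were all deposited tags, scaling, thresholds, windows, bins and overlap.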

Additional observations from a re-analysis of the deposited data

How the results depend on the processing

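Of the ratios between treatments at single sites, 94 kept their direction and side of the threshold under the alternatives, 4 passed the threshold in addition and 2 no longer did. The other 2 turned, without being called, the taller Gata4 site between SB and DMSO under scaling by GC content (0.943) and the Eomes site between Activin and DMSO in 500 bp around the highest pileup (1.11). With all deposited tags, 2 sites were called between Activin and DMSO, Foxa2 (ratio 0.140) and a Gata4 site (0.213), 1 between SB and DMSO, Gata6 (3.52), and 2 bins above input, and Foxa2 was also called between Activin and SB (0.124). At an adjusted p under 0.001, 0 sites were called between Activin and SB, 1 site above input and 0 bins. With listed peaks of at least 13 tags, the Eomes and Foxa2 sites dropped out, 5 listed positions were left and 3 sites were above input. With 20 kb on each side, 1 site was called between Activin and SB, 2 were above input and 2 listed positions were left. With bins of 500 bp, or at least 5 tags per bin, 0 bins were called. With 100 kb on each side, chosen after seeing the data, there were 20 listed positions and 7 genes with one. Scaling by GC content or by tags outside the sites changed no call between treatments at the 6 sites. Sites above input in at least 1 treatment numbered 6 with scaling by GC content, also chosen after seeing the data, and 5 without it. The cause of these changes was not tested. No paired analysis was possible because each treatment had 1 ChIP library. Depth limits these results, since 4 of the 6 sites held 20 to 27 ChIP tags in all.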
